A study of Mus musculus with 2 samples.

Results

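The caspases, the Bcl2 family and the inhibitors and adaptors of apoptosis were compared between lungs of Rosa26-Foxm1 mice and wild-type (WT) lungs in a chemical carcinogenesis protocol. Members were taken by gene symbol from the platform annotation, as symbols that start with Casp and a digit or with Bcl2, the inhibitors Birc2, Birc3, Birc6 and Xiap, and the named family members and adaptors described here. By this rule 31 of 13840 named genes were members, and 14 further RefSeq genes that fit the rule, among them Casp9, Bax, Bak1 and the Bcl2a1 genes, were not analysed here.

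Rosa26-Foxm1 mice are transgenic for the forkhead transcription factor Foxm1. In published work on such mice the Rosa26 promoter, active in most cell types, drives a human FOXM1 cDNA, though the labels state neither the promoter's extent nor the cDNA. The labels give the WT mice as male FVB/N, and neither sex nor strain is given for the Rosa26-Foxm1 mice in the labels used here. Both groups had received 3-methylcholanthrene, a carcinogen, as a single intraperitoneal dose of 15 µg per g body weight. They had then received 6 weekly injections of butylated hydroxytoluene, a lung tumour promoter, of which the first held 150 µg/g and each later one 200 µg/g, and lungs were taken 12 weeks after the carcinogen. Left lobes of 3 mice were pooled on each of the 2 one-colour arrays, so there was 1 sample per group. The spread between mice could not be measured, and the genotypes could not be compared by a test.

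Apoptosis runs along a mitochondrial and a death receptor route. Along the first, BH3-only proteins neutralise the anti-apoptotic Bcl2 proteins or activate the effectors Bax and Bak1, cytochrome c leaves the mitochondrion, and Apaf1 assembles the complex that activates caspase-9. Along the second, Fadd recruits caspase-8 to a ligand-bound receptor, where Cflar restrains it. Both routes end in executioner caspases, which Xiap holds back and which Diablo releases from Xiap. A further set of caspases, caspase-1 and caspase-4 in the mouse, serves inflammation by maturing interleukin-1 family cytokines and by opening gasdermin pores.

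Values are quantile-normalised probe intensities, and the floor is the array median of 1.00, below which a probe was not taken as measured. Of the 31 members, 23 lay above this floor on both arrays and 8 lay below it on both, so no member counted as measured through 1 array alone. Log2 differences are Rosa26-Foxm1 minus WT. Error could be judged only between probes, by the probe SD, which is the SD of a single probe's log2 difference estimated from genes with 2 or more measured probes. It was 0.31 over 317 such genes, with 0.38 for the dimmer and 0.23 for the brighter ones, which were parted at an intensity of 10.5. It leaves out differences between mice. In these genes 42 pairs of probes (13.2%) lay 1.5-fold or more apart from each other.

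Differences of the members ran from -0.96 to 0.72. Of the 23 measured, 3 exceeded WT by 1.5-fold or more in Rosa26-Foxm1 lung (13.0%, against 7.08% of all 9516 measured genes) and 4 fell short of it by 1.5-fold or more (17.4%, against 8.45% of all). The higher members were Bad, Bcl2l14 and Casp8ap2, and the lower ones were Casp1, Bcl2, Cflar and Apaf1. In either direction 7 of 23 members passed this size (30.4%, against 15.5% of all measured genes), and none reached 2-fold (3.49% of all). With a lower floor or none, the shares of all measured genes were larger, and the members lay near them. With the floor at the 25th percentile 3 of 29 members were higher and 4 lower, against 10.9% and 12.4% of all. With no floor 4 of 31 members were higher and 5 lower, against 13.2% and 14.4% of all. The median over the members was -0.06, the same to 2 decimals as the median of -0.06 over all measured genes. It was 0.02, above 0, with the floor at the 25th percentile. Values above 0 were seen in 11 members and values below 0 in 12, beside 43.9% of all measured genes above 0. Of the 23 differences, 11 were smaller than the probe SD while 12 were larger. A single probe stood behind 21 of the measured members and 2 probes each behind Bcl2 and Cflar.

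**Figure D1:**
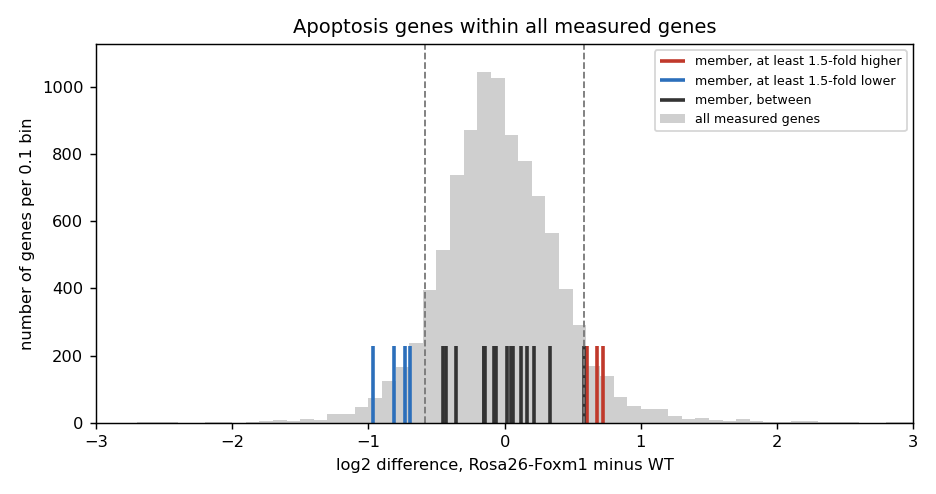
Log2 difference (Rosa26-Foxm1 minus WT) of the 23 measured members (coloured ticks) over the histogram of all 9516 measured genes (grey, number of genes per 0.1 bin), with dashed lines at 1.5-fold and the few genes beyond the ends of the axis not drawn. The 4 ticks left of the lower line and the 3 right of the upper line are the members past 1.5-fold, and the tick of Casp4 falls just short of the upper line.

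The inflammatory caspases lay on opposite sides of 0. Casp1, which encodes the protease that matures interleukin-1 beta and interleukin-18, had an intensity of 11.9 in Rosa26-Foxm1 lung and 23.3 in WT lung. This difference of -0.96 (1.95-fold lower) was the largest of any member, at percentile 1.73 of all measured genes and 4.18 times the probe SD of the brighter genes. Casp4, known as caspase-11 in the mouse, encodes the sensor protease for cytosolic lipopolysaccharide. It had 10.7 in Rosa26-Foxm1 lung and 7.17 in WT lung. Its difference of 0.583 fell just short of the 1.5-fold size of 0.585, and with loess scaling it was past that size at 0.62. As deposited, before normalisation here, the intensities were 11.9 against 23.2 for Casp1 and 10.7 against 7.23 for Casp4. Casp1 and Casp4 are neighbours in the RefSeq annotation of GRCm38.p6, with no other protein-coding gene between their start sites. Each rests on a single probe whose sequence was not used here, and whether either probe also binds transcripts of the other gene was not tested.

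The windows before the start sites of these neighbours are shown because the genes differed in opposite directions and because the array compared mice transgenic for a forkhead factor. Both strands of the 250 bases before each RefSeq start (GRCm38.p6) were searched for the forkhead core letters GTAAACA and for letters of NF-kB sites (GGGA, any 4 bases, then CC), and matches are in capitals. The Casp1 window at chr9:5298267-5298516 (plus strand) held neither, and the Casp4 window at chr9:5308599-5308848 (plus strand) held both, without overlap.
Casp1: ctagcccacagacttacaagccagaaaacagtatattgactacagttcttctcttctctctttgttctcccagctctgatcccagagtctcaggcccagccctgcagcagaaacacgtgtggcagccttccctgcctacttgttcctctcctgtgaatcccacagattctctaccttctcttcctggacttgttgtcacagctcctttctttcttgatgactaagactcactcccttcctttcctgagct
Casp4: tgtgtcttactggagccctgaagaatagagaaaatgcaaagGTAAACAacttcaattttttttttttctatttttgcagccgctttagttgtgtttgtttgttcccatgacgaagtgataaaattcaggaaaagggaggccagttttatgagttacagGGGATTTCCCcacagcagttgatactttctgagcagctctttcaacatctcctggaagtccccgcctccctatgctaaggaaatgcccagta
In the Casp4 window GTAAACA ran from 209 to 203 bases before the start and the NF-kB letters from 92 to 83 bases before it, and these NF-kB letters match on both strands. Of all 32851 such windows in the RefSeq table, 3.17% held GTAAACA and 17.6% held the NF-kB letters. Among 41 windows of the 28 members in that table, 4 held GTAAACA (Casp4 with both its starts, Bcl2l11 and Bbc3) and 6 held the NF-kB letters (Casp4 with both starts, Bbc3, Birc3, Bok and Xiap). A match is a description of the letters and not a measured binding site.

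Among the initiator and executioner caspases few could be measured. Casp8, the apical protease of death receptors, was below the floor on both arrays, with normalised intensities of 0.0870 in Rosa26-Foxm1 lung and 0.359 in WT lung, and is given no fold. Casp2, an initiator linked to DNA damage and chromosome number, and Casp14, a caspase of cornifying epidermis, were also below it on both. Casp6, an executioner that cleaves nuclear lamins, had 37.0 in Rosa26-Foxm1 lung and 38.6 in WT lung, a difference of -0.06. Casp8ap2, or FLASH, binds caspase-8 and is needed for histone mRNA processing in S phase. It had 3.998 in Rosa26-Foxm1 lung and 2.50 in WT lung (0.68, 1.60-fold higher), which is 1.79 times the probe SD of the dimmer genes. Thus the 1 member of the initiator group that was measured is a binding partner and not a protease.

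The 3 measured anti-apoptotic Bcl2 genes were all below 0, with a median of -0.43. Most measured genes also lay below 0, with 43.9% of them above it. Bcl2, the founding member, which guards the outer mitochondrial membrane, had 3.78 in Rosa26-Foxm1 lung and 6.63 in WT lung (-0.81, 1.75-fold lower). Its other probe read 1.30 in Rosa26-Foxm1 lung and 1.97 in WT lung, a difference of -0.60, so both probes placed Bcl2 past 1.5-fold in the same direction. Bcl2l1, which encodes Bcl-xL, had 57.1 in Rosa26-Foxm1 lung and 76.8 in WT lung. That difference of -0.43 was between the 1.5-fold limits and 1.85 times the probe SD of the brighter genes. Mcl1, a short-lived survival protein, had 53.9 in Rosa26-Foxm1 lung and 59.9 in WT lung (-0.15), less than the probe SD. Bcl2l10 was below the floor on both arrays.

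**Figure D2:**
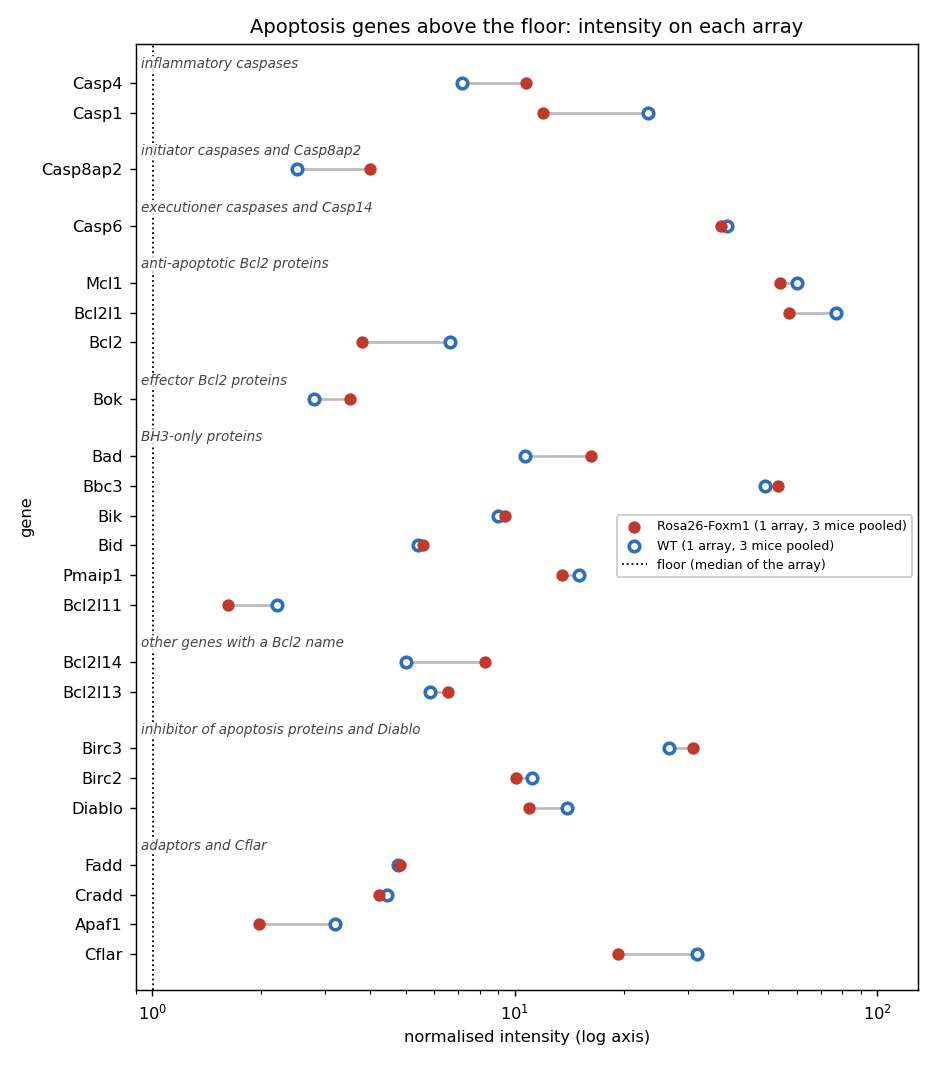
Normalised intensity (log axis) of each measured member in Rosa26-Foxm1 lung (filled red) and WT lung (open blue), 1 array of 3 pooled mice per group, by role, with the floor dotted. The points lie widest apart for Casp1, at 11.9 in Rosa26-Foxm1 and 23.3 in WT lung, and nearly coincide for Fadd, at 4.84 in Rosa26-Foxm1 and 4.77 in WT lung.

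Of the effectors that permeabilise the mitochondrion, Bok was the 1 with a probe here. It had 3.51 in Rosa26-Foxm1 lung and 2.79 in WT lung (0.33, 1.26-fold), close to the probe SD. Of 8 BH3-only genes, which trigger the mitochondrial route, 6 were measured. Their median was 0.05, and 1 was at least 1.5-fold higher. That gene was Bad, whose protein binds Bcl-xL and is silenced by survival kinases, with 16.2 in Rosa26-Foxm1 lung and 10.7 in WT lung (0.61, 1.52-fold higher), 2.63 times the probe SD of the brighter genes. Bcl2l11, which encodes Bim, had 1.61 in Rosa26-Foxm1 lung and 2.21 in WT lung (-0.45), close to the floor on both arrays. The p53 targets Bbc3, or Puma, and Pmaip1, or Noxa, differed by 0.12 and -0.15. Bbc3 read 53.2 in Rosa26-Foxm1 lung and 49.0 in WT lung, and Pmaip1 13.5 in Rosa26-Foxm1 lung and 15.0 in WT lung. Bid, which links caspase-8 to mitochondria, differed by 0.05 (5.59 in Rosa26-Foxm1 and 5.41 in WT lung) and Bik, a BH3-only protein of the endoplasmic reticulum, by 0.06 (9.42 in Rosa26-Foxm1 and 9.02 in WT lung). The sign of Bid depended on the setting, with values from -0.01 to 0.06. Bmf and Hrk were below the floor on both arrays.

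The windows of Bcl2l11 and Bbc3 are shown as the other members that held the forkhead letters, which Bcl2l11 carried on its own strand and Bbc3 as the reverse complement (TGTTTAC). Both genes are known targets of FoxO factors, another branch of the forkhead family. The window of Bcl2l11 lies at chr2:128125788-128126037 (plus strand) and that of Bbc3 at chr7:16310011-16310260 (plus strand), each at 1 of several RefSeq starts. The Bbc3 window shown held no NF-kB letters, and those counted for Bbc3 above lay before another of its starts.
Bcl2l11: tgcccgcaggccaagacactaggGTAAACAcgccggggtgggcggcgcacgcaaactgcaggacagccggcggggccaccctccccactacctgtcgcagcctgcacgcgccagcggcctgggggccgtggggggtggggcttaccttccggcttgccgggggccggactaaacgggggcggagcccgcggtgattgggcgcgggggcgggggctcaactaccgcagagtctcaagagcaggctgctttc
Bbc3: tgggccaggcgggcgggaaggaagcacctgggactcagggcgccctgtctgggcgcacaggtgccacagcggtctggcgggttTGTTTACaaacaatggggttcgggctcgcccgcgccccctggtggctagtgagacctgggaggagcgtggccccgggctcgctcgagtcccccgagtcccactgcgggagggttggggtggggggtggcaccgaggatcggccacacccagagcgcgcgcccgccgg
The forkhead letters ran from 227 to 221 bases before the start in Bcl2l11 and from 167 to 161 bases before it in Bbc3. The 3 members with these letters differed by -0.45 (Bcl2l11), 0.12 (Bbc3) and 0.58 (Casp4), so they lay on both sides of 0.

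Among other genes with a Bcl2 name, Bcl2l14, or Bcl-G, had 8.30 in Rosa26-Foxm1 lung and 5.03 in WT lung (0.72, 1.65-fold higher), the highest difference of any member. It was 1.92 times the probe SD of the dimmer genes. With the floor at the 75th percentile, which lies above its WT intensity, its difference shrank to 0.15 as a lower bound. Bcl2l13, a mitochondrial protein with roles in mitophagy, had 6.54 in Rosa26-Foxm1 lung and 5.83 in WT lung (0.16), less than the probe SD.

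Neither Birc2 nor Birc3, the inhibitor of apoptosis genes measured among the members, passed 1.5-fold. Birc5, which is outside the member rule, was 2.22-fold higher and is described with the survival kinases below. Birc2 and Birc3, which encode the ubiquitin ligases cIAP1 and cIAP2 of the tumour necrosis factor receptor complex, are neighbouring genes. Birc2 had 10.1 in Rosa26-Foxm1 lung and 11.1 in WT lung (-0.14), and Birc3, a known target of NF-kB, had 31.0 in Rosa26-Foxm1 lung and 26.7 in WT lung (0.22). Diablo, or Smac, the mitochondrial antagonist of these inhibitors, had 10.9 in Rosa26-Foxm1 lung and 14.0 in WT lung (-0.36), 1.54 times the probe SD of the brighter genes. Xiap, the direct caspase inhibitor, and Birc6, a giant ubiquitin-conjugating member, were below the floor on both arrays.

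Of the 4 adaptors and regulators of caspase activation, 2 were at least 1.5-fold lower (against 8.45% of all measured genes) and the median was -0.38. Cflar, which encodes the caspase-8 inhibitor c-FLIP, had 19.2 in Rosa26-Foxm1 lung and 31.8 in WT lung (-0.73, 1.66-fold lower), 3.16 times the probe SD of the brighter genes. Its other probe read 4.62 in Rosa26-Foxm1 lung and 7.49 in WT lung, a difference of -0.70, so both probes gave nearly the same size. Apaf1, the scaffold of the apoptosome, had 1.97 in Rosa26-Foxm1 lung and 3.19 in WT lung (-0.69, 1.61-fold lower), 1.83 times the probe SD of the dimmer genes. The death domain adaptors Fadd and Cradd were level between the arrays within the probe SD. Fadd had 4.84 in Rosa26-Foxm1 lung and 4.77 in WT lung (0.02, and from -0.02 to 0.06 over the settings run), and Cradd 4.22 in Rosa26-Foxm1 lung and 4.46 in WT lung (-0.08). The members past 1.5-fold in the lower direction therefore held both restraints on death (Bcl2 and Cflar) and promoters of it (Apaf1, and Casp1 for inflammatory death).

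**Figure D3:**
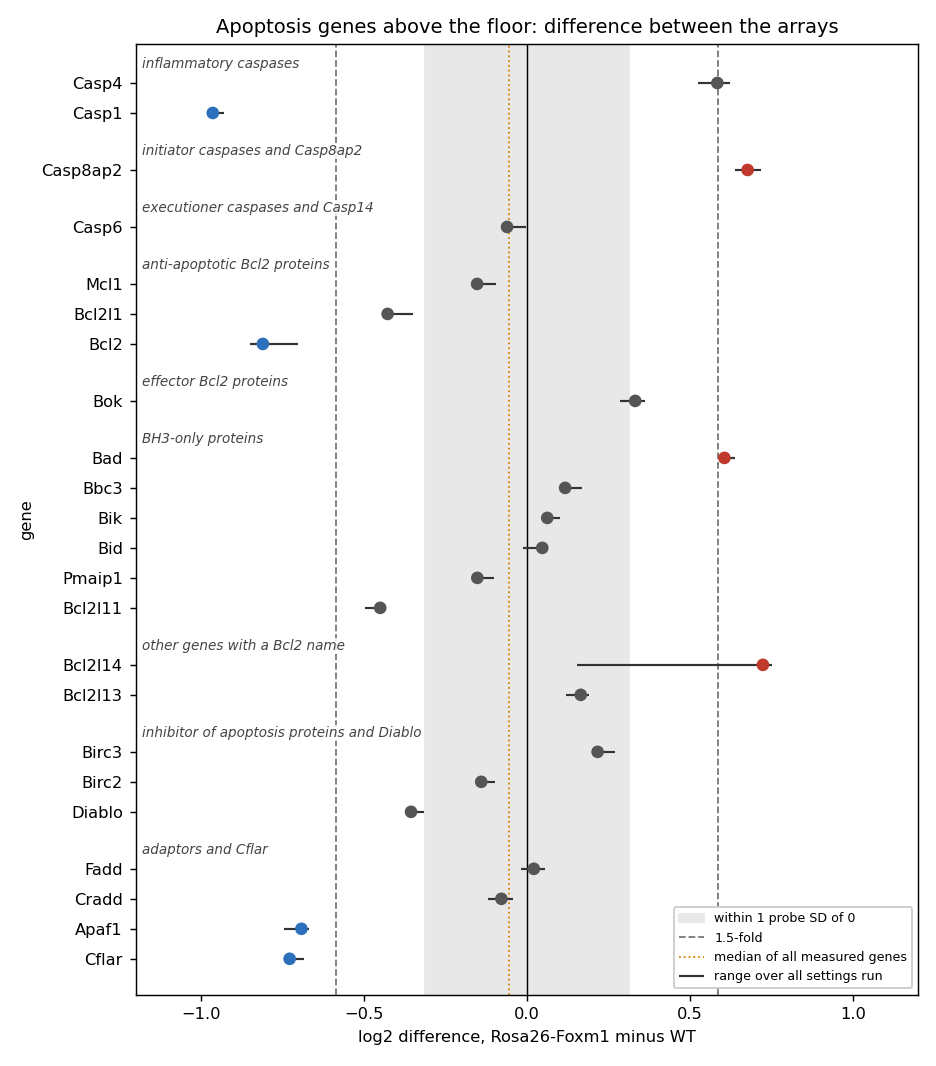
Log2 difference (Rosa26-Foxm1 minus WT) of each measured member by role, coloured red or blue where past 1.5-fold (dashed), with the range over all settings run as a thin line, 1 probe SD around 0 shaded and the median of all measured genes dotted. Casp1 at -0.96 is farthest left, and Bcl2l14 has the widest range over the settings, from 0.15 to 0.75.

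Other genes of the death pathways were described from lists of their roles, which were chosen with earlier results of these data known. Beside the counts of all lists, here and below, stand 7.08% higher and 8.45% lower of all measured genes. Of 10 measured death receptors and ligands, 3 were lower by 1.5-fold or more, none was higher, and the median was -0.21. Over the other settings 1 to 4 were lower, up to 1 was higher, and the median lay between -0.42 and -0.12. Fas, the receptor that signals through Fadd and caspase-8, had 5.79 in Rosa26-Foxm1 lung and 14.6 in WT lung (-1.34, 2.53-fold lower). Tnfrsf21, or death receptor 6, differed by -0.84 and was close to the floor in Rosa26-Foxm1 lung (1.31 against 2.35 in WT lung), and Tnf, at -0.59, was just past the size. None of 11 adaptor and necroptosis genes passed 1.5-fold, and their median was -0.10. None of 10 p53 and stress regulators passed it either (median -0.20), but Ddit3, a stress-induced transcription factor named after its values were seen, lay at 0.58 and was past the size, at up to 0.63, with median scaling, the deposited values and loess. Of 13 mitochondrial and nuclear effectors, Cideb, a lipid droplet and death effector protein of hepatocytes, was at least 2.33-fold higher, with the WT array below the floor. In the same list Acin1, a chromatin and splicing factor cut by caspases, was just past the size at -0.59, and was not past it (to -0.54) with median scaling, the deposited values and loess. The median of these 13 genes was -0.02, and it crossed 0 to 0.02 at the other end of the settings run.

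Genes of pyroptosis and the inflammasome had a median of 0.56 over 12 measured genes, of which 5 were at least 1.5-fold higher (against 7.08% of all measured genes) and none was lower. With the floor at the 75th percentile 7 genes were left, with 2 higher and a median of 0.34. Pycard, the adaptor ASC that joins sensors to caspase-1, had 22.7 in Rosa26-Foxm1 lung and 11.8 in WT lung (0.95, 1.93-fold higher). The pore former Gsdme differed by 0.74, close to the floor in WT lung (1.94 in Rosa26-Foxm1 lung against 1.16 in WT lung), and Ninj1, which ruptures the plasma membrane of dying cells, by 0.73. The remaining pair, named after their values were seen, were the cytokines Il1a (0.70) and Il18 (0.67, and 0.34 as a lower bound with the floor at the 75th percentile). Il1b (0.27) and Gsdmd (-0.31), the cytokine and the pore protein that caspase-1 cuts, also named after their values were seen, were between the limits. The sensor Nlrp3 was below the floor on both arrays. Casp1 thus differed downward by 0.96 while its adaptor Pycard differed upward by 0.95, in the same pair of arrays.

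**Figure D4:**
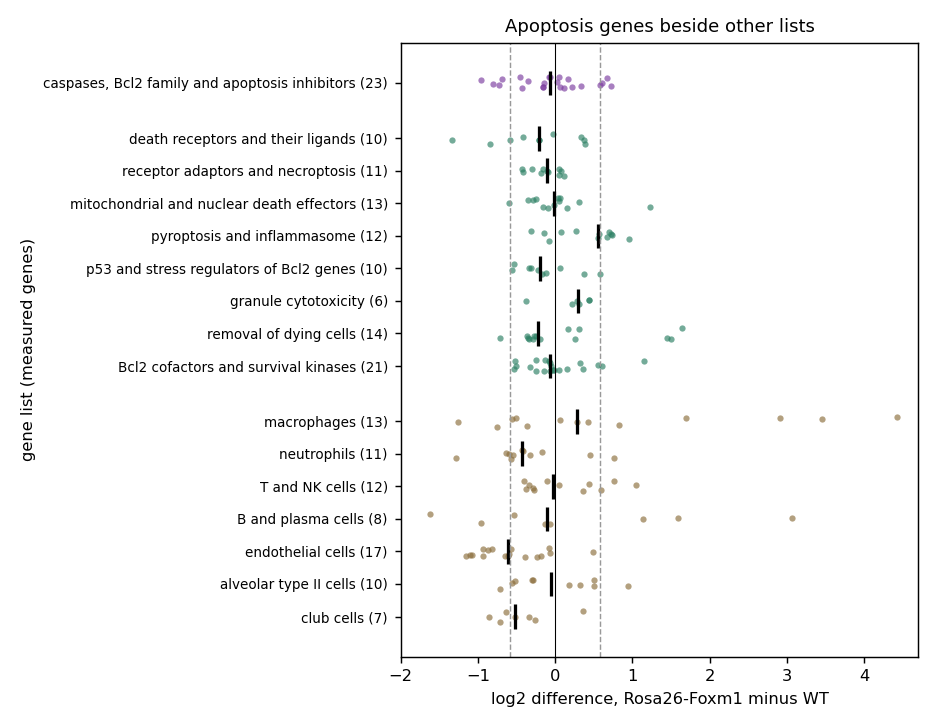
Log2 difference (Rosa26-Foxm1 minus WT) of the measured genes of each list (dots, number of genes in brackets, spread vertically for visibility only), with the list median as a black bar and dashed lines at 1.5-fold. The members (top, median -0.06) sit around 0, the pyroptosis list has a median of 0.56 and the endothelial markers have one of -0.61.

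Markers of cell types also differed between the pooled lungs. The marker lists were chosen with earlier results of these data known, so their counts are descriptions only. In whole lung tissue, fewer cells of a type and less RNA per cell cannot be told apart. The tissue carried its defining transcripts, with Sftpc of type II cells at 859 in Rosa26-Foxm1 lung and 1228 in WT lung. Foxm1 itself read 1.23 in Rosa26-Foxm1 lung and 1.13 in WT lung, close to the floor. It rests on 1 probe of the mouse gene, and whether this probe also reads a human FOXM1 transcript was not tested.

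Endothelial markers were lower by 1.5-fold or more in 10 of 17 measured genes (against 8.45% of all) and higher by that size in none (against 7.08%). With median scaling and with the deposited values 6 of the 17 were lower by that size. The summed intensity was 1685 in Rosa26-Foxm1 lung and 2626 in WT lung. Calcrl (-1.15) and Epas1 (-1.10) were the lowest, and Vwf (0.49) and Egfl7 (-0.06, and up to 0.04 over the settings run) the highest. Of 13 macrophage markers, 5 passed 1.5-fold upward and 2 downward, with sums of 1889 in Rosa26-Foxm1 lung and 1765 in WT lung. Most of these sums came from Chil3 (790 in Rosa26-Foxm1 and 587 in WT lung) and Lyz2 (740 in Rosa26-Foxm1 and 1050 in WT lung), which differed in opposite directions. Gpnmb (4.42) and Mmp12 (3.46) stood at one end and Siglecf (-1.26) and Marco (-0.75, below the floor in Rosa26-Foxm1 lung) at the other. Of 11 neutrophil markers, 1 was higher and 3 were lower, with sums of 582 in Rosa26-Foxm1 lung and 787 in WT lung. With loess 1 neutrophil marker was lower by that size. They ran from Cd177 (0.77) and Camp (0.45, WT below the floor) to Csf3r (-0.64) and Ngp (-1.28), and the granule genes Mpo and Elane were below the floor on both arrays. Of 12 T and NK cell markers, 3 were higher and none lower, with sums of 104 in Rosa26-Foxm1 lung and 95.1 in WT lung. They ran from Thy1 (1.04, WT below the floor) and Cd3g (0.76) to Prf1 (-0.38) and Cd5 (-0.41), with Cd4 below the floor on both arrays. Of 8 B and plasma cell markers, 3 were higher and 2 lower, with sums of 634 in Rosa26-Foxm1 lung and 296 in WT lung and a median of -0.10. Without Jchain the sums of the other 7 were 221 in Rosa26-Foxm1 lung and 247 in WT lung. Jchain (3.06) and Mzb1 (1.59) of plasma cells were the highest and Ms4a1 (-0.96) and Cr2 (-1.62) of B cells the lowest, with Pax5, Blk and Cd22 below the floor on both arrays. Club cell markers were lower in 3 of 7 and higher in none, with sums of 4271 in Rosa26-Foxm1 lung and 6099 in WT lung. They ran from Cldn10 (0.36) and Gabrp (-0.26) to Cyp4b1 (-0.72) and Ces1d (-0.86), with Krt15 below the floor on both arrays. Type II cell markers were lower in 1 and higher in 1 of 10, with 5 above 0, 5 below 0 and a median of -0.06. Their sums were 8860 in Rosa26-Foxm1 lung and 8293 in WT lung, and a few bright genes weighed most on them. Among these, Lyz1 had 2120 in Rosa26-Foxm1 lung and 1878 in WT lung, and Cd74 had 1970 in Rosa26-Foxm1 lung and 1575 in WT lung. The type II markers ran from Sftpd (0.94) and Sftpa1 (0.51) to Slc34a2 (-0.56) and Etv5 (-0.71). The part of these cell types in the differences of Casp1, Bcl2, Cflar, Apaf1 and the higher members was not tested.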

How the data were processed

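Lung RNA of the 2 groups was measured on 2 one-colour arrays of digoxigenin-labelled cRNA, 1 per group, each from 3 pooled mice, per the labels. What the authors deposited is a linear intensity per probe, with a median of 1.00 on each array, over 33012 probes. Image software, background correction, normalisation and detection calls were not given in the labels or files used here. The number of arrays limits the precision.

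Of the probes, 14411 had 1 gene and 247 had several and were not named. Symbols were updated by gene ID to RefSeq (GRCm38.p6), which matched 13832 of 13840 genes. Values were quantile normalised between the arrays, set to a floor at the 50th percentile and log2 transformed (Python 3.11.15, pandas 2.3.3, numpy 2.4.6). A gene was taken by its probe with the highest mean log2 intensity. The steps were tested on simulated data. Every measured member is named. Other lists name up to 3 genes at each end past 1.5-fold, and cell type lists the extremes. Alternatives were median scaling, deposited values, loess (span 0.3), a floor at the 25th or the 75th percentile, no floor, and the median over probes. Promoter windows are RefSeq's, and protein sequences were not used here. Members and lists were chosen with earlier results of these data known.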

Additional observations from a re-analysis of the deposited data

How the results depend on the processing

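Of 152 differences of single members recomputed under the alternatives, 151 moved by less than the probe SD, and no member past 1.5-fold changed sign. The members past 1.5-fold were the same 3 higher and 4 lower genes under median scaling, the deposited values, the floor at the 25th percentile and the median over probes. With the floor at the 25th percentile these were out of 29 measured members, against 10.9% higher and 12.4% lower of all measured genes. Loess added Casp4. Without a floor, Xiap and Casp8 were added, both below the floor otherwise. With the floor at the 75th percentile, which leaves 14 measured members, 1 was higher (Bad) and 2 were lower (Casp1 and Cflar), and the median of the adaptors and Cflar, then Cflar alone, was -0.73. The median over the members ranged from -0.10 to 0.02. Bok, Casp8ap2, Bcl2 and Apaf1 were among the members that lay below the floor at the 75th percentile on both arrays and gave no value there. Counts of other lists past 1.5-fold moved too. With median scaling and the deposited values 2 T and NK cell markers were higher and 2 club cell markers lower, and with loess 7 pyroptosis genes were higher, 4 club cell and 2 type II cell markers lower. With the floor at the 75th percentile, which leaves fewer genes, 1 T and NK cell marker and no neutrophil marker was higher, no B and plasma cell marker was lower, and 1 macrophage marker was. No paired analysis was possible because each group holds 1 array, and for the same reason no array could be left out. Dim probes limit what can be said of Casp8, Xiap and the other 6 members below the floor.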

Other observations

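Genes for the removal of dying cells did not differ alike. The 3 chains of complement C1q, which tags dying cells for uptake, were higher in Rosa26-Foxm1 lung. C1qa had 199.9 in Rosa26-Foxm1 lung and 73.1 in WT lung (2.73-fold), C1qb 52.4 in Rosa26-Foxm1 lung and 18.6 in WT lung (2.82-fold), and C1qc 60.4 in Rosa26-Foxm1 lung and 19.3 in WT lung (3.13-fold). The integrin chain Itgb5 differed by -0.71. Of the 14 measured genes of this list 3 were at least 1.5-fold higher and 1 was lower (against 7.08% and 8.45% of all). The median was -0.22. C1q is made by macrophages, of which 5 of 13 measured markers passed 1.5-fold upward and 2 downward, with 5 of the 13 below 0. These markers were chosen with earlier results of these data known. The part of macrophages in the C1q values was not tested.

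Among 21 cofactors of the Bcl2 family and survival kinases, 2 were at least 1.5-fold higher (against 7.08% of all measured genes) and none was lower. These were Birc5, or survivin, with 9.03 in Rosa26-Foxm1 lung and 4.06 in WT lung (2.22-fold), and the kinase Pim2 (0.61), close to the floor in WT lung. Pim2 was no longer past 1.5-fold, at 0.57, with median scaling and the deposited values, and with the floor at the 75th percentile no gene of the list was, where Birc5 differed by 0.27 as a lower bound. None of 6 measured genes of granule cytotoxicity passed 1.5-fold, with Prf1, which encodes perforin, at -0.38 and a list median of 0.29.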
